A study of Mus musculus with 8 samples.

Results

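The Hox genes encode homeodomain transcription factors that lie in 4 clusters, HoxA, HoxB, HoxC and HoxD, and the 31 Hox genes described here are those of 26165 measured genes whose symbol is Hox, a cluster letter and a paralog number. The number runs from 1 at the 3′ end of a cluster to 13 at its 5′ end, and genes of the same number in different clusters are paralogs. Each symbol had 1 row in the array values. The reference annotation lists 39 mouse Hox genes, and the other 8 (Hoxa3, Hoxa4, Hoxa5, Hoxa6, Hoxc6, Hoxc8, Hoxc9 and Hoxd4) were not analysed here. HoxA on chromosome 6 was represented by 7 of 11 genes, HoxB on chromosome 11 by 10 of 10, HoxC on chromosome 15 by 6 of 9 and HoxD on chromosome 2 by 8 of 9.

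In vertebrate embryos, Hox genes are activated in the order in which they lie in a cluster, so that 3′ genes are used from the hindbrain backwards and 5′ genes only towards the tail, the limb ends and the genital bud. Skin keeps part of this code, and regional identity of skin appendages has been tied to it. The proteins bind DNA together with TALE homeodomain partners of the Pbx, Meis and Pknox families. Hoxc13 has a separate role in hair and nail, where it is needed for the formation of a normal hair shaft.

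Epithelium of back skin was taken at embryonic day E15.5 from 4 Foxi3-/- embryos, which lack the forkhead transcription factor Foxi3 throughout the body, and from 4 Foxi3+/+ embryos, all on a C57/Bl6 background. These groups are called Foxi3 null and wild type. Null embryos were recognised by the missing jaw and by genotyping, wild-type embryos by genotyping, and the epithelium was freed from the dermis with dispase. Each embryo gave 1 exon array, the embryos came from 4 litters, and no source used here ties an embryo to a litter. Values are log2 intensities, on which a difference of 1 is a doubling of the signal as the array reports it.

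The targeted gene Foxi3 was 8.62, 8.43, 8.45 and 8.19 in Foxi3 null 1 to 4, against 8.96, 9.07, 9.20 and 8.55 in wild type 1 to 4. The difference was −0.52 (SE 0.15, limma adjusted p = 0.9999, exact two-sided permutation p = 0.0571). Limma thus did not call the targeted gene, and a missing call is not read as equal levels. No source used here says whether its probes lie in the deleted part, so this level does not check the labels. The 8 basal epidermis markers (Krt5, Krt14, Trp63, Itga6, Itgb4, Col17a1, Cdh1 and Epcam) had a mean between 10.15 and 10.24 in every embryo. By Ddx3y, a Y-linked gene, the sexes were not balanced: it was 7.69 in Foxi3 null 3, against 7.98 and 8.13 in wild type 3 and 4, and 2.34 to 2.67 elsewhere. Certain embryos stood apart on other lists. Of 20 dermal fibroblast genes 18 were highest in Foxi3 null 2, where the list mean was 7.84, against 6.35 to 6.62 for the remaining null embryos and 6.34 to 6.60 for the wild-type embryos. Of 16 immediate-early genes, which cells induce within minutes of a stimulus, 15 had their top values in the embryos numbered 4. The mean of that list was 8.37 in Foxi3 null 4 and 7.18 to 7.35 in the other null embryos, against 9.31 in wild type 4 and 7.28 to 7.54 in wild type 1 to 3. The mean of 10 skeletal muscle genes was 4.94 to 5.17 in Foxi3 null and 5.04 to 5.42 in wild-type embryos. Of these genes 0 had the higher mean in Foxi3 null, against 46% of all genes. The lists of dermal fibroblast and immediate-early genes also leaned, with counts of 19 of 20 and 0 of 16. Among basal epidermis markers the count was 4 of 8. The count was 7 of 11 for Schwann cell and nerve genes and 4 of 7 for endothelium. It was 2 of 6 for leukocyte genes and 3 of 6 for melanoblast genes. In such bulk preparations, fewer cells of a type and less RNA per cell cannot be told apart.

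Promoter sequence is shown for Hoxa2, Hoxa7, Hoxb8 and Hoxd8, because these genes varied between embryos in patterns described below and have an entry in the RefSeq promoter table (build GRCm38.p6). Each line gives the 250 bases before the start site, 5′ to 3′ on the gene's own strand. Capitals mark a match to TGATNNAT or to its reverse complement ATNNATCA, a composite motif bound by Pbx and Hox proteins together. The windows lie at chr6:52164832-52165081 (minus strand) for Hoxa2, chr6:52218574-52218823 (minus strand) for Hoxa7, chr11:96281655-96281904 (plus strand) for Hoxb8 and chr2:74704365-74704614 (plus strand) for Hoxd8.
Hoxa2: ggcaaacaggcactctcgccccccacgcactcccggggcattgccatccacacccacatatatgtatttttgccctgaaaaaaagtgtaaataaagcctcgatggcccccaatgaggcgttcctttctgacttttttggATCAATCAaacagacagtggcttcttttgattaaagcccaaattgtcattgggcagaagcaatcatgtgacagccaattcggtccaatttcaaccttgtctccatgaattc
Hoxa7: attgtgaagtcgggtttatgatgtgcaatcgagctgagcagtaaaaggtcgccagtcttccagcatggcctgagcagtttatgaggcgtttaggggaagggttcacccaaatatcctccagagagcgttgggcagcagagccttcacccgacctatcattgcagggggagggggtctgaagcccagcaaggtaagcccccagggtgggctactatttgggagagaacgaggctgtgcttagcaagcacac
Hoxb8: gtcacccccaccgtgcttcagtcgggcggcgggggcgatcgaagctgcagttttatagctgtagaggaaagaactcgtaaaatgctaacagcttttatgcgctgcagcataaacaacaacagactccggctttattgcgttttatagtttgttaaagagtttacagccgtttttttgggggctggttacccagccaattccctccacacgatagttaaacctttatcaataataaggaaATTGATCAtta
Hoxd8: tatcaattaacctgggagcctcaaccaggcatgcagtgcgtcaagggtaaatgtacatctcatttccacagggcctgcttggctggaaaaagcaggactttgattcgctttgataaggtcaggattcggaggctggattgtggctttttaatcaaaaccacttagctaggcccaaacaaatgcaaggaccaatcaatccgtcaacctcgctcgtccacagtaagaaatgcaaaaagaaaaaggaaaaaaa

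The promoter table held 20 windows of 18 measured Hox genes, and 4 of these windows, of Hoxa2, Hoxb1, Hoxb8 and Hoxd11, contained the composite motif on either strand. Over all 32851 windows of the same length 7.68% contained it. The forkhead core GTAAACA, or its reverse complement TGTTTAC, was in 0 of the 20 Hox windows and in 3.17% of all windows. Only these exact letters were searched, so looser forms of the core were not counted. The 20 windows are too few to tell 0 from a share of 3.17%. The 4 windows with the composite motif were likewise few, and their share was not tested against 7.68%. These counts describe letters in 250 bases and do not show binding or its absence.

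Hox intensities were highest among the 3′ and central genes and low among most 5′ genes. Of the 16 genes with paralog numbers 1 to 8, 15 had a mean over the 8 embryos above 5.22, the median of all genes, while of the 15 genes numbered 9 to 13 only Hoxb9, Hoxd11 and Hoxc13 did. The median intensity was 6.28 over the 9 genes numbered 1 to 4, 6.32 over the 7 genes numbered 5 to 8, and 4.70 over the 15 genes numbered 9 to 13. Probe sets of different genes are not calibrated against each other and detection calls were not used, so the order describes intensity and not transcript number.

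**Figure D1:**
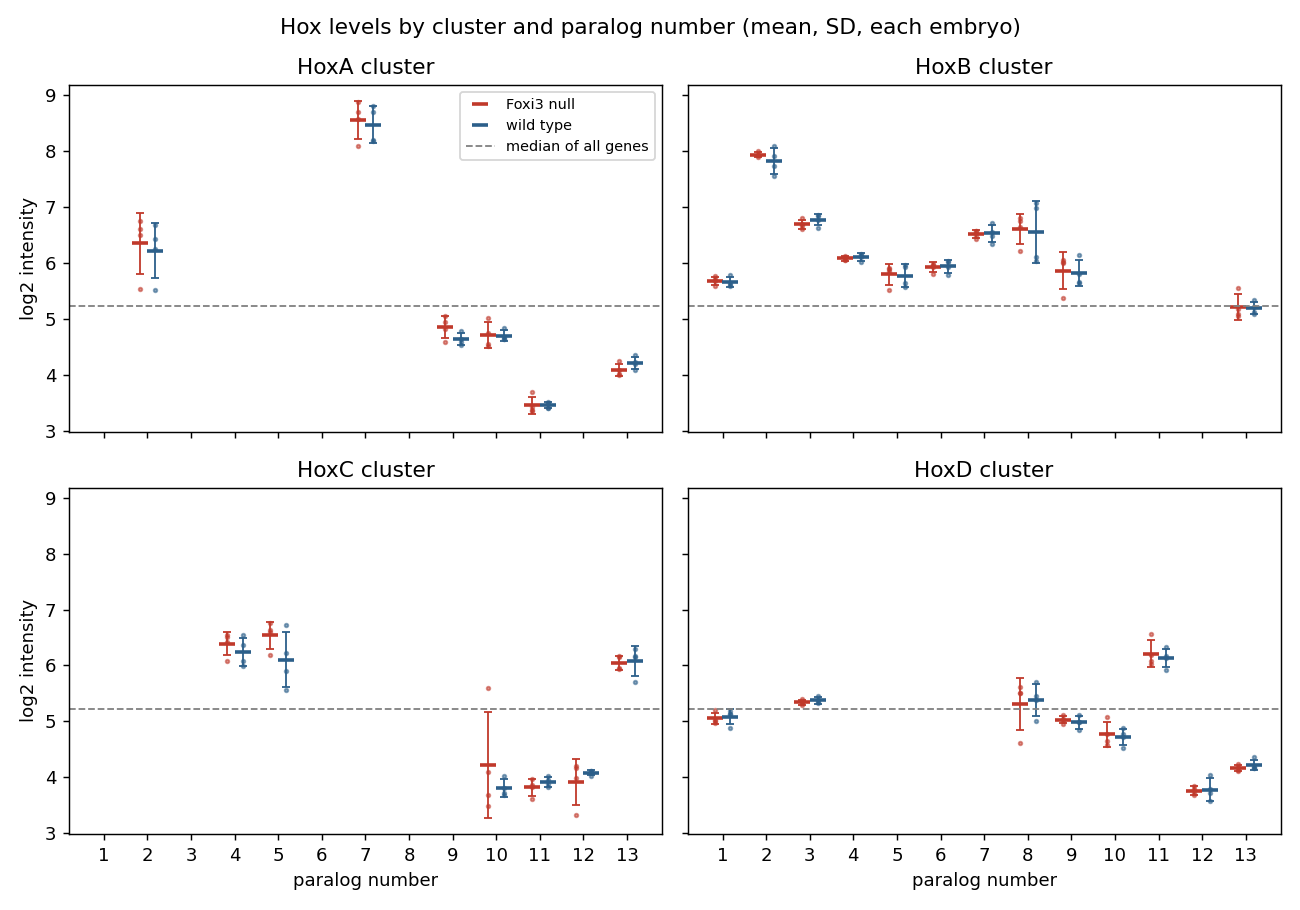
Log2 intensity of the Hox genes reported here by paralog number, with 1 panel per cluster. Points are embryos, thick dashes are group means and bars are SDs of 4 embryos, red for Foxi3 null and blue for wild type. The dashed grey line is the median of all genes, above which most genes numbered 1 to 8 lie.

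In HoxA, Hoxa7, a gene of thoracic vertebral patterning, averaged 8.56 ± 0.34 in Foxi3 null and 8.47 ± 0.33 in wild-type epithelium (SD, n = 4 each), brighter than 88.9% of all genes. Hoxa2, a selector gene of the second pharyngeal arch, had a mean of 6.28 over all embryos. The 5′ genes of the cluster were dimmer, with overall means of 4.74 for Hoxa9, 4.70 for Hoxa10, 3.46 for Hoxa11 and 4.15 for Hoxa13, all below the median of all genes.

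HoxB had the largest share of bright genes among the 4 clusters, with 9 of 10 members above 5.22. Hoxb13 was its only gene beyond Hoxb9, whereas Hoxa3 to Hoxa6, Hoxc6, Hoxc8, Hoxc9 and Hoxd4 of the other clusters were not analysed. The shares thus do not compare clusters over the same paralog numbers. Hoxb2, which acts in the hindbrain and facial nerve, averaged 7.94 ± 0.04 in Foxi3 null and 7.82 ± 0.23 in wild-type embryos (SD, n = 4 each). Hoxb3 followed at 6.69 ± 0.08 in null and 6.77 ± 0.10 in wild-type embryos. The other 3′ and central members lay between 5.67 for Hoxb1 and 6.58 for Hoxb8. Hoxb13, the most 5′ gene of the cluster, was at 5.20, just under the median. The annotated span of Hoxb3 overlaps that of Hoxb4, so how signal was divided between them is uncertain.

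In HoxC, Hoxc4 (6.32) and Hoxc5 (6.32) were the 3′ genes measured, and Hoxc10, Hoxc11 and Hoxc12 lay between 3.87 and 4.01. Hoxc13 did not follow these neighbours, with a mean of 6.06, above 61.2% of all genes. It was 6.16, 5.95, 6.15 and 5.93 in Foxi3 null 1 to 4, against 5.70, 6.30, 6.15 and 6.18 in wild type 1 to 4. Wild type 1 was the lowest and wild type 2 the highest of the 8 embryos, and the groups overlapped (difference −0.03, SE 0.13, limma adjusted p = 1.00, exact two-sided permutation p = 0.886).

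In HoxD 3 of 8 genes exceeded the all-gene median. Hoxd1 (5.07), Hoxd3 (5.36), Hoxd8 (5.35) and Hoxd9 (5.01) lay near the median. Hoxd12, a gene of the limb ends, was the dimmest at 3.77, beside Hoxd13 at 4.19. Hoxd11, known for forearm and kidney patterning, was at 6.17, above its neighbours Hoxd10 (4.75) and Hoxd12. The reference span of Hoxd11 overlaps that of Hoxd10, and that of Hoxd3 overlaps that of Hoxd4, so the division of signal within these pairs is uncertain.

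No Hox gene passed the test between genotypes. By limma with Benjamini-Hochberg adjustment over all genes 0 of 31 passed at adjusted p under 0.05. The share of all genes was 0.0115% (0.00382% higher and 0.00764% lower in Foxi3 null). In this fit without a replicate block 0 of 31 had an unadjusted p under 0.05, against 3.72% of all genes. Hoxc5 or Hoxa9 fell below 0.05 unadjusted in some alternative settings, with limma p down to 0.00697 for Hoxc5. In no Hox gene were the 4 null embryos all above or all below the 4 wild-type embryos, a separation seen in 1.95% of all genes (0.871% with null higher and 1.07% with null lower). The difference, Foxi3 null minus wild type, was above 0 in 17 of 31 Hox genes and in 46% of all genes. The median difference was 0.02 over the Hox genes and −0.01 over all genes.

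The size of the differences was bounded unevenly. Of the 31 differences 22 lay within 0.1 of 0, and they ranged from −0.16 for Hoxc12 to 0.43 for Hoxc5. The 95% interval of the limma fit lay within 0.5 of 0 for 23 of the 31 genes and within 1 for 30. The exception was Hoxc10, with an interval from −0.49 to 1.31. By cluster the median difference was 0.09 in HoxA, 0.02 in HoxB, 0.06 in HoxC and −0.03 in HoxD. These values moved with single embryos. Without wild type 4, 11 of 31 Hox genes were above 0, and the median was −0.0222 in HoxA and −0.0512 in HoxB. Without wild type 3 the HoxA median was 0.20, and the HoxC median lay between 0.0146 without null 1 and 0.13 without null 4. The HoxD median lay between −0.0557 without null 4 and 0.0019 without null 1.

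**Figure D2:**
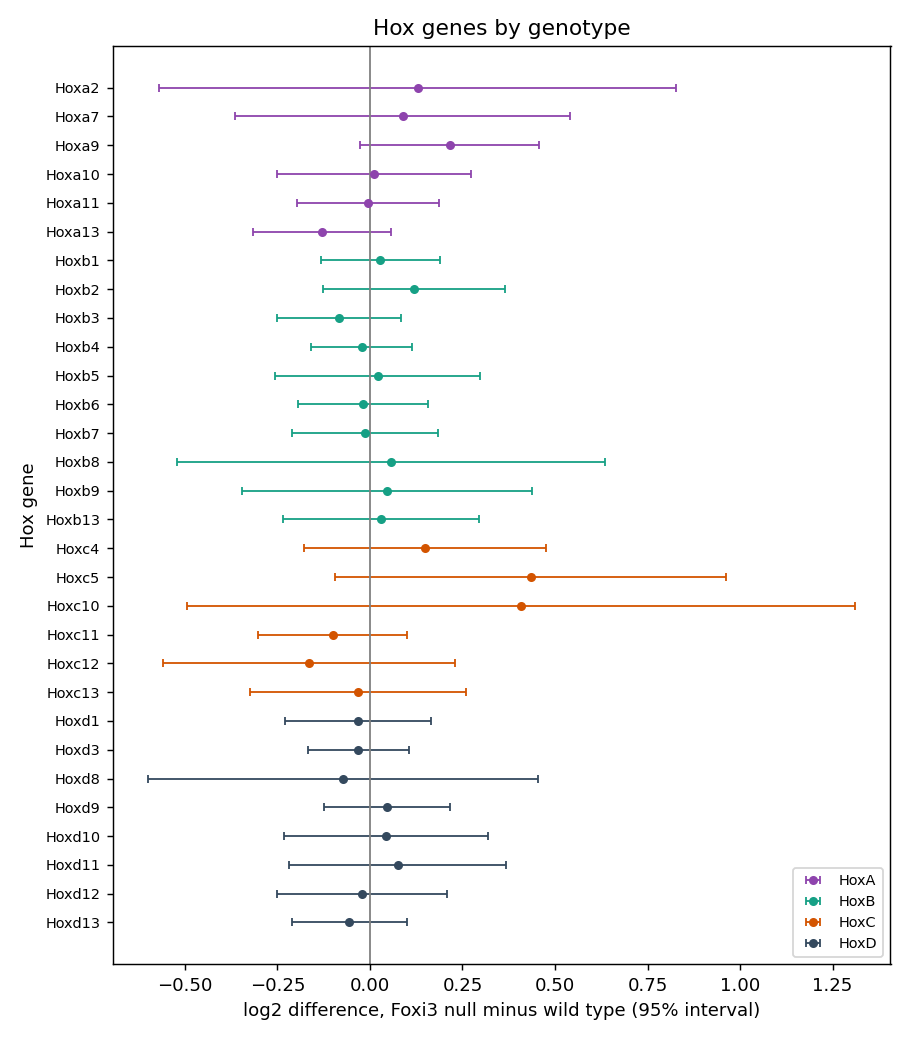
Log2 difference, Foxi3 null minus wild type, for the Hox genes reported here, with genes running down the page by cluster and paralog number. Points are differences of the means of 4 and 4 embryos and bars are 95% intervals of the limma fit. Every interval drawn includes 0, and that of Hoxc10 is the widest.

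Of the genes with the lowest unadjusted p, Hoxa9 and Hoxc5 stood first. Hoxa9, which patterns the thoracolumbar axis, was 4.59, 5.04, 4.81 and 4.95 in Foxi3 null 1 to 4, against 4.58, 4.53, 4.79 and 4.63 in wild type 1 to 4. Null embryos 2, 3 and 4 lay above all wild-type embryos, and null 1 lay among them. The difference was 0.22 (SE 0.11, limma unadjusted p = 0.0741, adjusted p = 1.00, exact two-sided permutation p = 0.114).

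Hoxc5, a gene expressed in neck and anterior trunk, was 6.63, 6.59, 6.76 and 6.19 in Foxi3 null 1 to 4, against 6.23, 5.90, 6.73 and 5.57 in wild type 1 to 4. Wild type 3 reached the level of the null embryos and null 4 fell among the wild-type ones. The difference was 0.43 (SE 0.23, 95% interval −0.09 to 0.96, limma adjusted p = 1.00, exact two-sided permutation p = 0.229). It was 0.25 without wild type 4 and 0.64 without wild type 3, with limma adjusted p = 1.00 and 0.674, and over all alternatives its adjusted p ran from 0.218 to 1.00.

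The other 4 genes of lowest p had smaller differences, all with limma adjusted p = 1.00. Hoxa13, which shapes digits and genitalia, was 4.07, 3.99, 4.24 and 4.02 in Foxi3 null 1 to 4, against 4.35, 4.09, 4.22 and 4.18 in wild type 1 to 4. Null 1, 2 and 4 lay below all wild-type embryos and null 3 above all but wild type 1 (difference −0.13, SE 0.08, exact two-sided permutation p = 0.171). Hoxc11, a lumbosacral gene, was 3.87, 3.83, 3.61 and 3.97 in the null embryos, against 3.88, 4.03, 3.95 and 3.83 in the wild-type embryos. Only null 3 lay outside the wild-type range (difference −0.10, SE 0.09, exact two-sided permutation p = 0.343), and without it the difference was −0.0301. Both genes are dim, Hoxa13 brighter than 31.2% and Hoxc11 than 26.4% of all genes.

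Hoxb3, active in hindbrain and pharyngeal arches, was 6.80, 6.61, 6.69 and 6.66 in Foxi3 null 1 to 4, against 6.84, 6.77, 6.85 and 6.63 in wild type 1 to 4. The groups overlapped through null 1 and wild type 4 (difference −0.08, SE 0.07, exact two-sided permutation p = 0.286). Hoxb2 was 7.99, 7.94, 7.93 and 7.89 in the null embryos, against 7.92, 7.72, 8.08 and 7.56 in the wild-type embryos. The null embryos lay inside the wild-type range, which was the wider (difference 0.12, SE 0.11, exact two-sided permutation p = 0.343). The Hoxb2 difference was 0.0302 without wild type 4 and 0.21 without wild type 3, with limma adjusted p = 1.00 and 0.697.

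The bright gene Hoxa7 differed by 0.09 (SE 0.20, 95% interval −0.36 to 0.54, limma adjusted p = 1.00, exact two-sided permutation p = 0.829).

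Hox genes varied between embryos of the same genotype. The SD within groups had a median of 0.18 over the 31 Hox genes and 0.14 over all genes, and 19 of the Hox genes were above that of all genes. It ran from 0.05 for Hoxd3 to 0.68 for Hoxc10. The median SD was 0.12 over the genes numbered 1 to 4, 0.33 over those numbered 5 to 8 and 0.18 over those numbered 9 to 13. The patterns over embryos described next were singled out after the values were seen and carry no test.

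**Figure D3:**
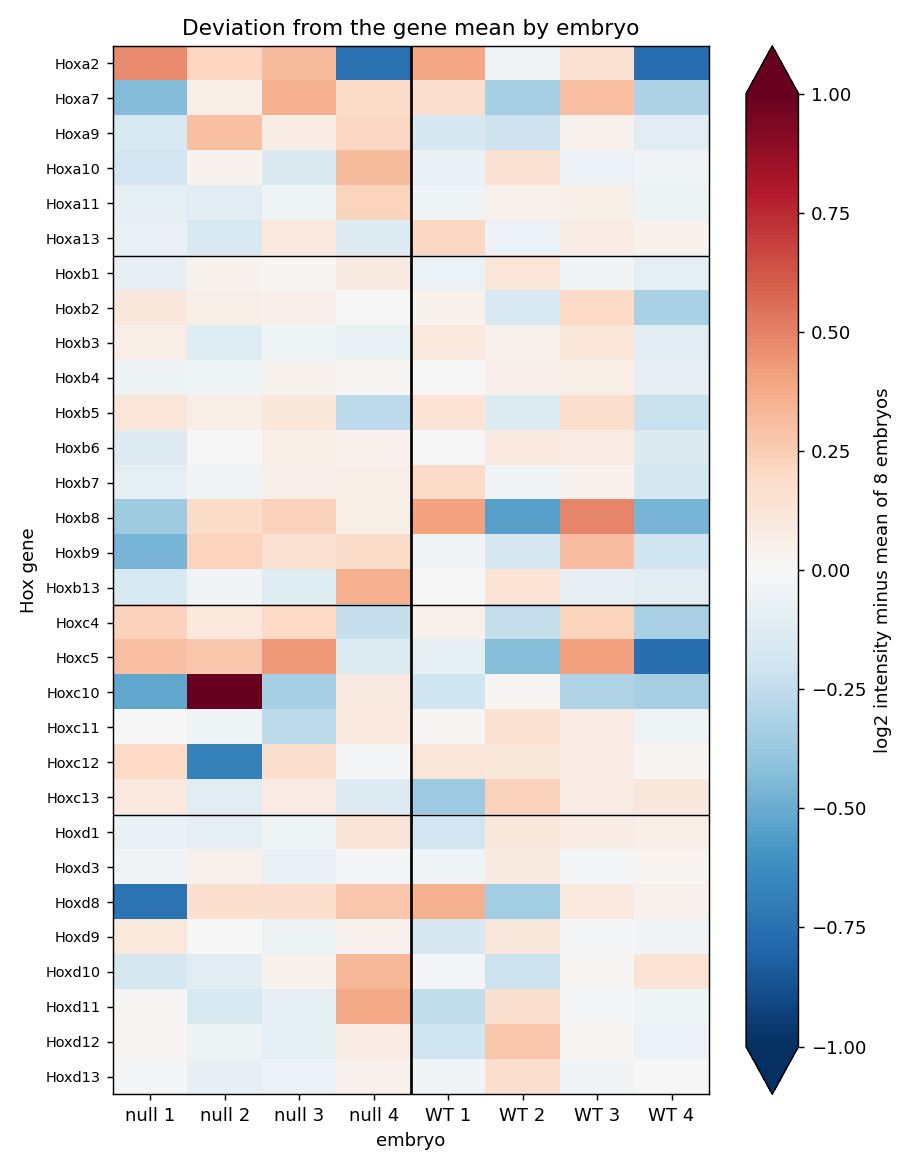
Log2 intensity of the Hox genes reported here minus its mean over the 8 embryos, as colour, with embryos across (Foxi3 null left of wild type) and genes down by cluster and paralog number. The scale ends at 1 in both directions. Hoxc10 is high in null 2, and Hoxa2 is low in the embryos numbered 4 of both groups.

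Some genes were lowest in the embryos numbered 4. Hoxa2 was 6.75, 6.50, 6.60 and 5.53 in Foxi3 null 1 to 4, against 6.67, 6.25, 6.43 and 5.52 in wild type 1 to 4. Both embryos numbered 4 were thus lower than the other embryos by more than the spread among those. The genotype means were 6.35 ± 0.55 in null and 6.22 ± 0.50 in wild type (SD, n = 4 each), a difference of 0.13 (SE 0.31, limma adjusted p = 1.00, exact two-sided permutation p = 0.600).

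Hoxb5, a gene of the neck and upper trunk, was 5.52 in null 4 and 5.85 to 5.90 in the other null embryos, against 5.56 in wild type 4 and 5.64 to 5.96 in wild type 1 to 3. Of the 31 Hox genes 3, Hoxa2 and Hoxb5 among them, had both embryos numbered 4 as their lowest. This held for 7.6% of all genes, a share near that of the Hox genes, so the count is not particular to them. The immediate-early genes were high in the same embryos, as given above, and their part in these values was not tested.

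Another pattern was shared by genes of 3 clusters. In Hoxa7, Hoxb8, Hoxb9 and Hoxd8 the 3 lowest embryos were Foxi3 null 1, wild type 2 and wild type 4, which held for 4 of 31 Hox genes and for 1.88% of all genes. Hoxb8, which marks thoracic levels and is also known from mouse mutants with excessive grooming, was 6.22, 6.76, 6.80 and 6.64 in Foxi3 null 1 to 4, against 6.98, 6.03, 7.06 and 6.11 in wild type 1 to 4. Within wild type the embryos thus fell into a high and a low pair, and the genotype difference was 0.06 (SE 0.26, limma adjusted p = 1.00, exact two-sided permutation p = 0.914).

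Hoxa7 was 8.08, 8.58, 8.87 and 8.71 in Foxi3 null 1 to 4, against 8.69, 8.18, 8.81 and 8.20 in wild type 1 to 4. Hoxb9, a gene of thoracic and rib patterning, was 5.37, 6.05, 5.99 and 6.02 in the null embryos, against 5.80, 5.66, 6.15 and 5.64 in the wild-type embryos. Hoxd8 was 4.61, 5.51, 5.51 and 5.62 in the null embryos, against 5.39 to 5.70 in wild type 1, 3 and 4 and a lower value in wild type 2. Wild type 4, at 5.39, was close below wild type 3, at 5.45, so that Hoxd8 shows the pattern least clearly. In each of these genes null 1 was below the other null embryos, whereas Hoxa2 was not low in it.

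A further pattern was in Foxi3 null 2. Hoxc10, a gene of lumbar levels and the hindlimb, was 3.49, 5.59, 3.68 and 4.10 in Foxi3 null 1 to 4, against 3.82, 4.02, 3.71 and 3.68 in wild type 1 to 4. Null 2 alone was above the median of all genes. The group difference of 0.41 (SE 0.40, limma adjusted p = 1.00, exact two-sided permutation p = 0.600) was −0.05 (SE 0.15) without that embryo. In the same embryo Hoxc12 was 3.32, against 3.98 to 4.20 in null 1, 3 and 4 and 4.02 to 4.12 in wild-type embryos, and its difference was −0.16 with and 0.03 without null 2. Hoxc11, which lies between these genes, was 3.83 in null 2, within the range of the other embryos. The dermal fibroblast list was also highest in null 2, as given above, and its part in the Hoxc10 value was not tested.

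**Figure D4:**
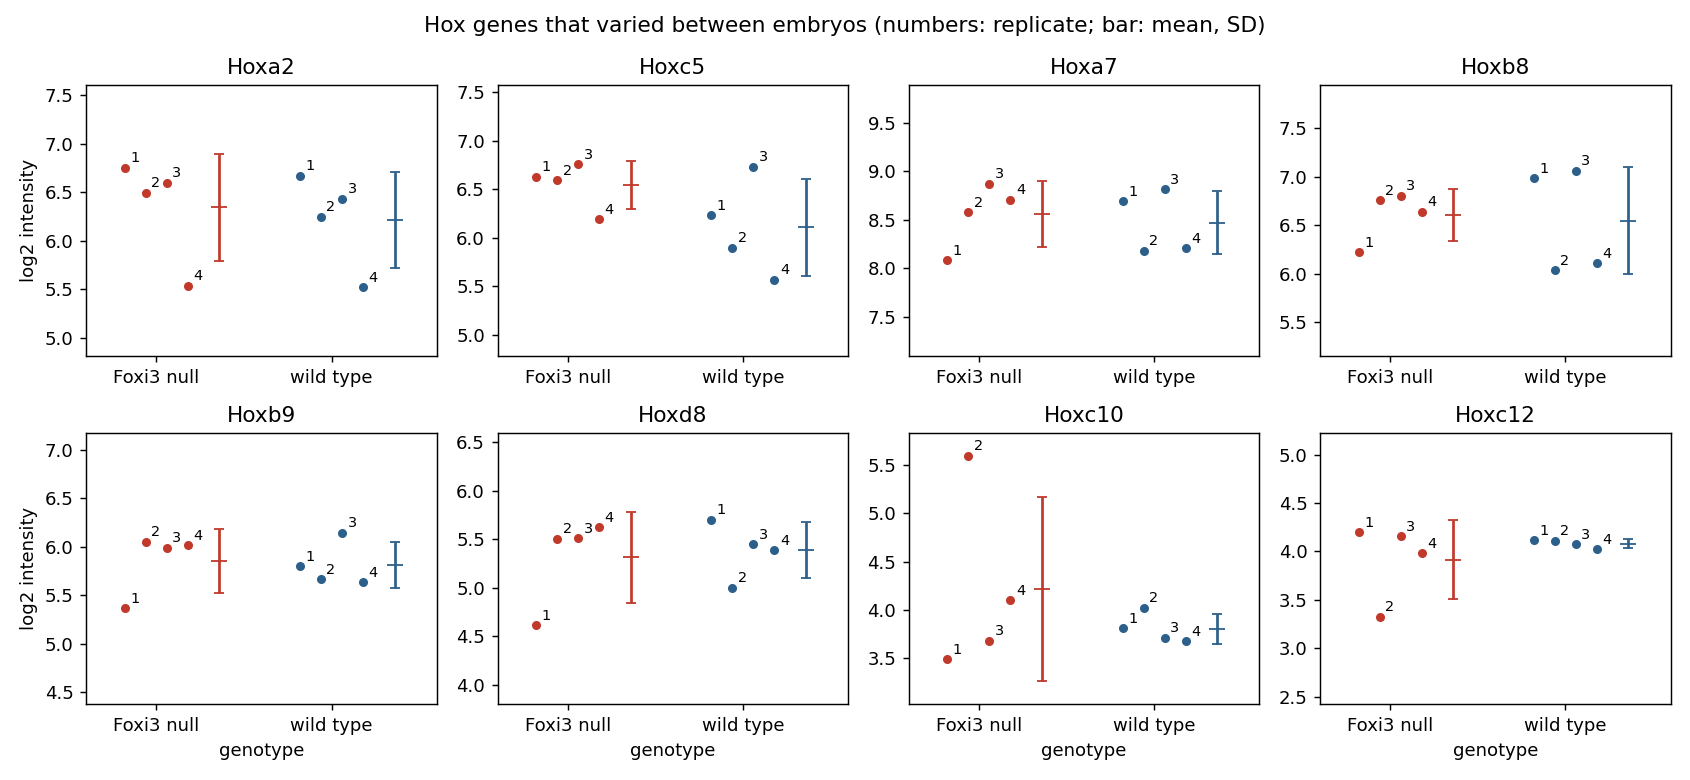
Log2 intensity of 8 Hox genes in each embryo, Foxi3 null left of wild type, with the replicate number beside each point and the mean and SD of 4 embryos at the right of each group. All panels span the same number of log2 units, from different starting levels. Points of the genotypes overlap in every panel.

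To ask whether genes next to each other in a cluster varied together, all 27 pairs of measured neighbours were correlated over the 8 embryos, a step added after the data were seen. Pearson's r was above 0 in 22 pairs (81.5%), with a median of 0.36. It was above 0 in 57.3% of 20817 other pairs of measured genes adjacent in the reference order, with a median of 0.10. Among 438 Hox pairs that were not neighbours it was above 0 in 56.6%, with a median of 0.07. These 438 pairs include pairs of different clusters, so they do not separate being neighbours from lying in the same cluster. Some measured neighbours, such as Hoxa2 and Hoxa7, have genes not analysed here between them. The pairs share embryos and genes, and these shares are a description with no test. They also depend on few embryos. Without the 2 embryos farthest from the median of the first gene, r changed sign in several neighbour pairs, more often to below 0 than to above 0. The share above 0 was thus lower than 81.5% in that setting, and no share over other adjacent genes is given for it. For Hoxa10 and Hoxa11 r went from 0.79 to −0.04. For Hoxb6 and Hoxb7 it went from 0.59 to −0.48 and for Hoxa9 and Hoxa10 from 0.36 to −0.44. For Hoxd3 and Hoxd8 it went from −0.26 to 0.17. After Benjamini-Hochberg adjustment over the 27 pairs 1 pair passed. This was Hoxc4 and Hoxc5, with r = 0.94 (n = 8, exact two-sided permutation p = 0.000372, adjusted p = 0.0100) and Spearman's rho = 0.90 (exact permutation p = 0.00456, adjusted p = 0.0978). Without the 2 embryos farthest from the median of Hoxc4, r was 0.86. The embryos share the array normalisation, and whether the probe sets of both genes cover shared transcripts was not tested.

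For Hoxb8 and Hoxb9 r was 0.78 (n = 8, exact two-sided permutation p = 0.0303, adjusted p = 0.117) with rho = 0.69 (exact permutation p = 0.0694, adjusted p = 0.519), and r was 0.78 also without the 2 farthest embryos. Hoxd8 and Hoxd9 varied in opposite directions, with r = −0.77 (n = 8, exact two-sided permutation p = 0.0291, adjusted p = 0.117), rho = −0.64 (exact permutation p = 0.0962, adjusted p = 0.519) and r = −0.50 without the 2 farthest embryos. These pairs did not pass the adjustment. They were not the strongest of the rest, as 8 of the 27 pairs had an unadjusted p of r under 0.05. Hoxd11 and Hoxd12 had rho = 0.88 (exact permutation p = 0.00724, adjusted p = 0.0978). Hoxd12 and Hoxd13 had r = 0.83 (exact two-sided permutation p = 0.0199, adjusted p = 0.117).

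The TALE partners of Hox proteins were well represented, with 8 of 9 brighter than the all-gene median. By limma 0 of 9 passed in either direction, 7 differences were above 0 and their median was 0.07. For this and the following lists, the shares over all genes were 0.0115% called and 46% above 0. Meis2 was 8.16, 7.86, 8.21 and 7.64 in Foxi3 null 1 to 4, against 7.79, 7.65, 7.93 and 7.47 in wild type 1 to 4. Its groups overlapped (difference 0.26, SE 0.14, limma adjusted p = 1.00), and each embryo numbered 4 was the lowest of its group. Pknox2, brighter than 46.1% of all genes, was at 0.13 (SE 0.10, limma adjusted p = 1.00). Meis1 was 5.91 in Foxi3 null 4 and 6.51 to 6.65 in the other null embryos, against 6.02 in wild type 4 and 6.21 to 6.57 in wild type 1 to 3, the same low embryos as for Hoxa2.

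Genes that set or maintain Hox expression also gave no call. Of 23 such genes, comprising Cdx factors, Gdf11, trithorax and Polycomb proteins and Ctcf, limma called 0 in either direction, with a median difference of 0.01 and 13 above 0. Gdf11, a Tgfb family ligand that sets the trunk-to-tail boundary, was 4.89, 5.01, 4.85 and 4.91 in Foxi3 null 1 to 4, against 4.78, 4.81, 4.74 and 4.71 in wild type 1 to 4. All null embryos lay above all wild-type embryos, as in 0.871% of all genes, by a difference of 0.15 (SE 0.06, limma unadjusted p = 0.0359, adjusted p = 1.00). The Polycomb gene Ezh2 was at 0.09 (SE 0.08, limma adjusted p = 1.00).

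Among non-coding RNAs of the clusters, 10 of 16 were matched by symbol or reference synonym, and limma called 0 in either direction, with 8 differences above 0 and a median of 0.07. Hoxaas2, a long non-coding RNA listed between Hoxa2 and Hoxa3 (named 5730446D14Rik in the deposited values), was 6.44, 6.54, 6.64 and 6.34 in Foxi3 null 1 to 4, against 6.02, 6.03, 6.31 and 6.06 in wild type 1 to 4. All null embryos lay above all wild-type embryos, as in 0.871% of all genes. The means were 6.49 ± 0.13 in null and 6.10 ± 0.14 in wild type (SD, n = 4 each). The difference was 0.39 (SE 0.09, limma unadjusted p = 0.00248). After adjustment over all genes it missed the threshold (limma adjusted p = 0.994), and its exact two-sided permutation p of 0.0286 is the smallest that 4 against 4 can give. Its annotated span overlaps that of Hoxa3, so signal of the 2 genes may not be separable.

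Hoxaas3, another RNA of HoxA, was at 0.14 (SE 0.11) and Hoxb3os at 0.11 (SE 0.08), both with limma adjusted p = 1.00. Of the coding genes that flank the clusters 10 of 11 were measured, limma called 0 in either direction, and 5 lay above 0 with a median of 0.00360. Calcoco1 beside HoxC was at 0.10 (SE 0.07), Ttll6 beside HoxB at 0.09 (SE 0.07) and Hibadh beside HoxA at −0.05 (SE 0.08).

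Genes known as Hoxc13 targets in hair and nail were measured in 3 of 4 cases, and limma called 0 in either direction. Foxn1, the transcription factor mutated in nude mice, was 7.46, 7.46, 7.20 and 7.30 in Foxi3 null 1 to 4, against 7.48, 7.55, 7.46 and 7.67 in wild type 1 to 4. Null 2 lay just above wild type 3 and the other null embryos lay below all wild-type embryos (difference −0.19, SE 0.08, limma adjusted p = 1.00, exact two-sided permutation p = 0.0571). The hair keratin genes Krt35 and Krt82 were at −0.06 (SE 0.07) and −0.00474 (SE 0.09), near the median of all genes in intensity.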

How the data were processed

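Each of 8 embryos gave 1 Affymetrix mouse exon array, per the file headers. The deposited log2 intensities were made by the authors with RMA, per the submitters' processing notes. No source used here gives its version, the probe annotation or the genome build. Groups and replicate numbers came from sample titles. A further 8 array columns matched no sample by name and were not used. The deposited log2 group means differed from means of the values used by at most 7.5e-09.

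All 26165 genes were fitted with lmFit and eBayes (limma 3.58.1, R 4.3.3), two-sided and without covariates, and p-values were Benjamini-Hochberg adjusted over all genes. Steps were tested on simulated data. Single genes also had an exact permutation test over 70 arrangements. The number of arrays limits precision.

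Sample values and full statistics are given for the 6 Hox genes of lowest unadjusted p, the 4 of highest mean, the 4 of largest SD within groups, and Hoxc13. Other lists are given by counts and up to 3 genes of lowest p. Sample values of other genes (Hoxb5, Hoxb9, Hoxc12, Hoxd8 and Meis1), the immediate-early list and the promoters shown were chosen after their values were seen. Some genes that these rules name are not reported here. Members and lists were chosen with earlier results of these data known.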

Additional observations from a re-analysis of the deposited data

Results flagged for a closer look

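Dixon's ratio, the distance from an extreme embryo to the next one over the range of its group, exceeded 0.829, the 95% limit for 4 embryos, in the values listed here. This held for 7 of 70 values tested (31 Hox genes and 4 cluster means in 2 groups). About 3.5 would be singled out by chance if the values were normal and independent, but they share embryos. The share over all genes was not computed, so the count is not read as particular to Hox genes. Foxi3 null 1 was low for Hoxb9 (0.907), Hoxd8 (0.885) and the HoxB mean (0.872), the last at 6.12 against 6.26 to 6.28 in the other null embryos. Foxi3 null 4 was low for Hoxb5 (0.855). Wild type 2 was high for Hoxd13 (0.881, at 4.37 against 4.16 to 4.19) and for Hoxa10 (0.837, at 4.84 against 4.63 to 4.67), both dim genes. Wild type 1 was low for Hoxd1 (0.839, at 4.88 against 5.13 to 5.18). The HoxB mean gathers genes of which Hoxb9 is one, so those values are not independent.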

How the results depend on the processing

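After quantile normalisation or centring on medians, among brighter genes alone, with an intensity trend and robust moderation, with a replicate block, or with any 1 embryo left out, limma called 0 Hox genes in either direction. Each Hox gene had 1 row, so the alternative of another row per symbol gave no value. The count of Hox genes above the median of all genes was 18, and 18 to 19 without any 1 embryo. The number of Hox genes with a positive difference was 17, 11 of 18 tested among genes above the median intensity (fewer genes were tested), 11 to 19 without any 1 embryo, and 10 without both embryos numbered 4, an alternative added after the data were seen. That last setting gave −0.0496 for the HoxA median, −0.0761 for the HoxB median, −0.0496 for Hoxa7, −0.0996 for Hoxb8 and 0.0397 for Hoxc13. Without any 1 embryo the difference ran from −0.10 to 0.40 for Hoxa2, −0.0154 to 0.25 for Hoxa7, −0.11 to 0.23 for Hoxb8, −0.0499 to 0.65 for Hoxc10 and −0.16 to 0.0407 for Hoxc13. It ran from 0.15 to 0.30 for Hoxa9, −0.18 to −0.0827 for Hoxa13, 0.0302 to 0.21 for Hoxb2, −0.13 to −0.0567 for Hoxb3 and −0.15 to −0.0301 for Hoxc11. The cause was not tested. Same-numbered embryos did not all deviate together, with correlations of 0.13, −0.04, 0.49 and 0.36 for numbers 1 to 4. Those of different numbers ran from −0.417 to 0.261. For Foxi3 null 1, 3 and 4 the same-numbered wild-type embryo had the highest correlation. Whether they share a litter is not stated, so the numbers were not taken as pairs in the main fit. With the replicate block the lowest adjusted p among Hox genes was 0.372, and 0.218 with trend and robust moderation added, both for Hoxc5. The limma unadjusted p of Hoxc5 was 0.0122 and 0.00697 in these settings, against 0.0958 without the block. The block also lowered the SE of Hoxa2 from 0.31 to 0.065.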
